A study of Mus musculus with 28 samples.

Results

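Liver zonation genes are genes that hepatocytes express mainly at one end of the liver lobule, either around the central vein (pericentral) or around the portal triad (periportal). The set described here was a list of 10 genes, the 7 pericentral genes Glul, Oat, Lgr5, Axin2, Tbx3, Rhbg and Slc1a2 and the 3 periportal genes Gls2, Hal and Sds, and its members were all probe sets that the array annotation assigns to them. A probe set is the group of short array probes that together measure 1 transcript. The list gave 20 probe sets of 45037 and covered 8 genes of the 18193 that had a probe set naming them alone. All 7 pericentral genes had a probe set but Hal was the only periportal gene with one, so Gls2 and Sds were not analysed here. Each gene was represented by its lead probe set, the one with the highest mean over all arrays.

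Total RNA of whole liver was hybridized to Affymetrix Mouse Genome arrays, 1 mouse per array and 28 arrays in all. The mice were female, of the C3H/HeN strain and 5 weeks old at the start of 1 week of acclimation before the diets. They were either wild type (WT) or deficient for the constitutive androstane receptor (CAR), a nuclear receptor that induces drug-metabolizing enzymes. The deficiency is carried in the whole animal, not in hepatocytes alone. Every mouse drank an isocaloric liquid diet, freely for 1 week and then at 12 g per day for 4 weeks. The diets held ethanol and ellagic acid (EA), ethanol and trans-resveratrol (RSV), ethanol alone (EtOH), or water in place of ethanol (control), with 4 WT mice and 3 CAR-deficient mice on each. The intake of either polyphenol was about 50 mg per kg of body weight per day. By the study's diet formula the control diet also held more maltose and dextrin, so ethanol and carbohydrate changed together against control. The design asks what such an ethanol diet does to the liver, whether a polyphenol alters that, and whether either depends on CAR.

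The pericentral program is driven by Wnt and R-spondin signals from the endothelium of the central vein. They stabilize beta-catenin, which acts with TCF/LEF factors on genes such as Glul, Axin2, Lgr5 and Tbx3. The 2 zones share out nitrogen metabolism: periportal hepatocytes break down amino acids and make urea, and a thin pericentral layer takes up the remaining ammonia and glutamate and makes glutamine. Glul (glutamine synthetase) makes the glutamine, Slc1a2 (the glutamate transporter GLT-1) and Rhbg (an ammonia transporter of the Rh family) carry its substrates, and Oat (ornithine aminotransferase) feeds ornithine toward glutamate. On the periportal side Hal (histidine ammonia-lyase) releases ammonia from histidine.

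The genes lie apart in the genome (GRCm38.p6), with Lgr5 and Hal on the same chromosome: Oat at chr7:132557475-132576398, Rhbg at chr3:88242874-88254739, Slc1a2 at chr2:102658239-102790784 and Lgr5 at chr10:115450314-115587780. Glul lies at chr1:153899929-153909723, Tbx3 at chr5:119670534-119684724, Axin2 at chr11:108917828-108950783 and Hal at chr10:93488768-93516761. RefSeq promoter sequences were matched for 5 of the 10 listed genes (Glul, Oat, Axin2, Slc1a2 and Hal). The 250 bases before the start are shown for Oat, for Slc1a2 and for Hal, the periportal gene. In WT mice the lead probe sets of Oat and Slc1a2 were higher on every ethanol diet than on control. A second probe set of Slc1a2 did not show this. Capitals mark matches on either strand to CTTTGAT (the TCF/LEF core, ATCAAAG on the other strand), AGGTCA (a nuclear receptor half-site, TGACCT) and CCAAT (the CCAAT box, ATTGG).
Oat, chr7:132576399-132576648, minus strand: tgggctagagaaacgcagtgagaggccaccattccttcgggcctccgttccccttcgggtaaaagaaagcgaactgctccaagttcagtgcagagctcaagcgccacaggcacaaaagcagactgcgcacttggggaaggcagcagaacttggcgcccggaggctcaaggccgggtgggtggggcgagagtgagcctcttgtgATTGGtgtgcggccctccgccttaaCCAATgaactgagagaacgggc
Slc1a2, chr2:102706188-102706437, plus strand: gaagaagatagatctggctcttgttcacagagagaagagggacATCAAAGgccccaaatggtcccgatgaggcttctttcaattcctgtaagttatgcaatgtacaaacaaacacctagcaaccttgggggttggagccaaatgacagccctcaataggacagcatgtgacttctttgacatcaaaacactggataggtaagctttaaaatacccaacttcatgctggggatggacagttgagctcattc
Hal, chr10:93488518-93488767, plus strand: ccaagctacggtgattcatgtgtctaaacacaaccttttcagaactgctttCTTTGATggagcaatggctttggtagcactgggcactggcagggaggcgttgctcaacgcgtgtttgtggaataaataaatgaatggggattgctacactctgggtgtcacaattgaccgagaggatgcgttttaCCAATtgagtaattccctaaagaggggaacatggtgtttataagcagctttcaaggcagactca
The start used for Slc1a2 lies inside the gene, not at its first base. The TCF/LEF core was found in the windows of the pericentral gene Slc1a2 and of the periportal gene Hal, and 3.2% of 32851 promoter windows of that length hold it. The CCAAT box was found in Oat, Hal and Glul (33.8% of windows), and the half-site in Glul alone of the 5 (14.0%). These are letter matches and not shown binding sites.

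The values are log2 values of Distribution Free Weighting (DFW), a summary that weights the probes of a probe set and rescales their spread. A difference of DFW values is therefore not a calibrated log2 fold change, and levels were compared neither between genes nor between genotypes, which were summarised apart. Many probe sets barely varied: 79.3% in CAR-deficient mice and 85.3% in WT mice had a standard deviation of 0.01 or less across arrays, here termed compressed. Of the 20 member probe sets 10 were uncompressed in either genotype, and Axin2 was the 1 gene with a compressed lead. Hepatocyte markers (Alb, Apoa1, Ttr, Hnf4a, Cps1 and Fgb) were at 11.6 or above on every array. Apoa1 ran from 14.2 to 17.9 over the CAR-deficient arrays. The compressed Alb read 27.2 in CAR-deficient mice and 14.5 in WT mice, a measure of how far the scales of the genotypes can part. The gene of CAR itself, Nr1i3, read 8.55 to 9.49 in CAR-deficient mice and 8.96 to 10.1 in WT mice, and since the place of its probe set relative to the deletion is not given in the sources used here, it does not check the genotype. The library labelled CAR-deficient EtOH replicate 1 stood apart, with a median correlation of 0.983 to the other arrays of its genotype against 0.989 to 0.994 for the rest. It read 10.1 for Cyp2b10, a CAR target, where the other EtOH arrays of that genotype read 7.20 and 8.09 and its EA and RSV arrays 6.30 to 7.60. WT arrays of the ethanol diets read 8.60 to 10.6, on their own scale, so the genotype of this library was not settled by the data. Counts and differences from control in CAR-deficient EtOH mice, and the EtOH interaction, are given with and without it.

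In WT mice Oat, Rhbg and Slc1a2 were higher and Lgr5 was lower on every ethanol diet than on the control diet. No WT array of an ethanol diet overlapped the control arrays for these 4 genes, 4 of the 7 with uncompressed leads. Groups did not overlap for 27.4% of all genes on EA, 25.9% on RSV and 14.9% on EtOH, and for 57.6%, 48.4% and 27.8% of genes with uncompressed leads. Glul, the gene that defines the innermost pericentral layer, did not pass the test against control on any diet, and neither did Hal. Diets were compared by limma with 1 fit per genotype and adjustment over all probe sets, at a threshold of 0.05. The 3 comparisons with control share the same 4 control arrays.

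Oat, the mitochondrial enzyme that turns ornithine toward glutamate, read 12.32, 12.30, 12.62 and 12.51 on EA, 12.73, 12.89, 12.35 and 12.37 on RSV, 12.32, 12.24, 12.01 and 12.05 on EtOH, and 11.43, 11.34, 11.27 and 11.39 on control. The lowest array of an ethanol diet stood at 12.01 and the highest control array at 11.43. The difference from control was 1.08 for EA (standard error 0.12, adjusted p = 0.000249), 1.23 for RSV (adjusted p = 0.00014) and 0.80 for EtOH (adjusted p = 0.00417), with the same standard error in each.

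Rhbg, which lets ammonia through the cell membrane, read 8.41, 8.06, 8.49 and 8.48 on EA and 8.41, 8.28, 7.82 and 8.19 on RSV. On EtOH it read 7.89, 7.93, 7.94 and 8.09, and on control 6.996, 7.20, 7.47 and 7.13. The EtOH arrays sat close together, and the highest control array was below the lowest array of every other diet. Rhbg differed from control by 1.16 on EA (standard error 0.14, adjusted p = 0.00031), 0.98 for RSV (adjusted p = 0.000823) and 0.77 for EtOH (adjusted p = 0.00871).

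The lead probe set of Slc1a2 read 7.87, 7.81, 7.98 and 7.92 on EA, 7.67, 7.90, 7.58 and 7.74 on RSV, 7.81, 7.70, 7.90 and 7.54 on EtOH, and 7.25, 7.32, 7.37 and 7.37 on control. The control arrays were the lowest and the most alike. Its lead differed from control by 0.57 on EA (standard error 0.08, adjusted p = 0.000822), 0.39 for RSV (adjusted p = 0.00575) and 0.41 for EtOH (adjusted p = 0.0131).

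Lgr5, an R-spondin receptor and itself a Wnt target, went the other way. It read 6.68, 6.91, 7.01 and 6.74 on EA, 6.90, 6.85, 6.75 and 6.73 on RSV, 6.95, 6.74, 6.77 and 6.72 on EtOH, and 7.32, 7.09, 7.25 and 7.03 on control. The gap was narrow, since the highest EA array stood just under the lowest control array. Against control Lgr5 differed by -0.34 on EA (standard error 0.08, adjusted p = 0.0192), -0.37 for RSV (adjusted p = 0.0107) and -0.38 for EtOH (adjusted p = 0.0235). Lgr5 kept its call for RSV whichever array was left out (highest adjusted p = 0.0323), but lost it in 4 of 16 such fits for EA (up to 0.058, without EA replicate 1 or 4 or control replicate 1 or 3) and in 5 of 16 for EtOH (up to 0.0662, without EtOH replicate 3, 4 or 5 or control replicate 1 or 3). With only EA and control arrays in the fit the EA call was lost as well (adjusted p = 0.0695).

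**Figure D1:**
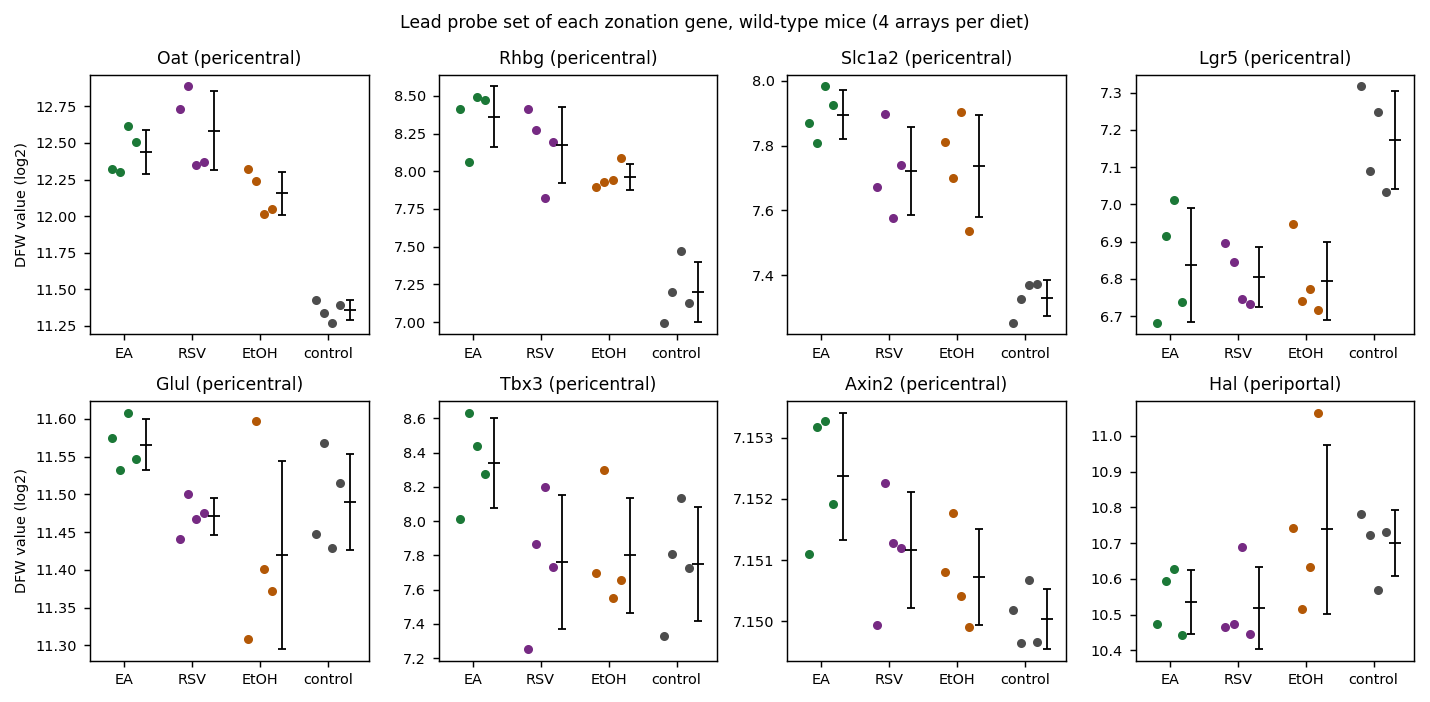
DFW values (log2, vertical axes) of the lead probe set of the 8 measured zonation genes on each WT array (points), by diet, with the mean and SD of the 4 arrays (bars). Axes do not start at 0 and differ between genes. For Oat, Rhbg and Slc1a2 the control arrays lie below all others, for Lgr5 above all others, and Glul, Tbx3 and Hal overlap.

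Counted over the set, 5 of 8 genes passed the test for EA against control, where 18% of all genes did. For RSV against control it was 4 of 8, with 23.8% of all genes called, and for EtOH against control 4 of 8, with 7.04% of all genes called. Most genes had compressed values and passed less often, so the uncompressed leads are the closer background. Among those, 43% of genes were called for EA, 45.3% for RSV and 18.4% for EtOH, against 4 of the 7 uncompressed members in each. For EA and RSV the share of members was thus near that of other uncompressed genes. The members were chosen with earlier results of these data known, so their shares are not independent of these values. When only EtOH and control arrays entered the fit, Oat and Rhbg passed and Slc1a2 (adjusted p = 0.0726) and Lgr5 (adjusted p = 0.083) did not. The fifth gene called for EA was Axin2, a feedback inhibitor of Wnt signalling, with a difference of 0.0023 (adjusted p = 0.0201) on a compressed probe set whose 16 WT values all rounded to 7.15.

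Glul read 11.58, 11.53, 11.61 and 11.55 on EA, 11.44, 11.50, 11.47 and 11.47 on RSV, 11.31, 11.60, 11.40 and 11.37 on EtOH, and 11.45, 11.57, 11.43 and 11.52 on control. On its lead probe set the diets overlapped, and the EtOH arrays spread the most, with replicate 3 the highest. The 95% confidence interval of the difference from control ran from -0.03 to 0.19 for EA, from -0.13 to 0.09 for RSV and from -0.18 to 0.04 for EtOH. Without EtOH replicate 3 the EtOH difference was -0.13 and passed narrowly (adjusted p = 0.0496). On a second uncompressed probe set of Glul the EtOH mean over all arrays was above control (10.56 against 10.45), with replicate 3 again the highest (10.82).

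Tbx3, a transcription factor downstream of beta-catenin, read 8.01, 8.63, 8.44 and 8.28 on EA, 7.25, 7.87, 8.20 and 7.73 on RSV, 7.70, 8.30, 7.55 and 7.66 on EtOH, and 7.33, 7.81, 8.13 and 7.73 on control. The EA arrays were on average the highest, with 1 of them below the top control array. Against control the difference was 0.59 for EA (standard error 0.23, adjusted p = 0.112), 0.01 for RSV (adjusted p = 0.976) and 0.05 for EtOH (adjusted p = 0.926). With the replicate number as a block over all WT diets, the EA difference passed (adjusted p = 0.0124). Same-numbered EA and control arrays deviated together, with correlations of 0.157 to 0.568. In the other pairs of WT diets the lowest correlation of same-numbered arrays ran from -0.236 to 0.0207.

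Hal read 10.47, 10.59, 10.63 and 10.44 on EA, 10.47, 10.47, 10.69 and 10.45 on RSV, 10.74, 10.51, 10.63 and 11.06 on EtOH, and 10.78, 10.72, 10.57 and 10.73 on control. The diets overlapped and no difference from control passed (-0.17 for EA, adjusted p = 0.31, -0.18 for RSV, adjusted p = 0.224, and 0.04 for EtOH, adjusted p = 0.867). Their intervals ran from -0.39 to 0.05 for EA, from -0.40 to 0.04 for RSV and from -0.18 to 0.26 for EtOH.

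Whole liver was measured, so fewer cells of a type and less RNA per cell cannot be told apart. Markers of Kupffer cells, the resident macrophages, moved along with the diets: 10 of 12 were called lower on EA, 10 on RSV and 9 on EtOH than on control, where 9.67%, 12.6% and 4.05% of all genes were. Among uncompressed leads it was 9, 8 and 8 of 9, beside 27.8%, 31.0% and 11.7% of all uncompressed leads. Their mean level was 8.43 to 8.58 on arrays of ethanol diets and 8.66 to 8.79 on control arrays, without overlap, and Mpeg1 (-0.61 on EA, -0.50 on RSV and -0.66 on EtOH) and Adgre1 (-0.56, -0.56 and -0.44) fell most. Among 12 markers of sinusoidal endothelium, the cells that supply Wnt signals, 8 had compressed leads, with Wnt2 and Rspo3 among them. On EA 3 were called higher, beside 8.29% of all genes, and 1 was called lower on RSV and 1 on EtOH. Of the 4 uncompressed leads 2 were higher on EA, beside 15.2% of all such leads, and 1 was lower on RSV and 1 on EtOH. Of 6 measured hepatocyte markers 4 had uncompressed leads. On EA 2 of these were called lower, on RSV 1 higher and 1 lower, and on EtOH 1 lower. Of all uncompressed leads 43%, 45.3% and 18.4% were called on EA, RSV and EtOH. The part of these cell types in the results above was not tested.

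The other probe sets of these genes did not all tell the same story. A second uncompressed probe set of Slc1a2 read 7.49, 7.36, 7.66 and 7.73 on EA, 7.52, 7.55, 7.33 and 7.46 on RSV, 7.51, 8.01, 7.44 and 7.35 on EtOH, and 7.64, 7.55, 7.57 and 7.54 on control. It overlapped between all diets, with differences from control of -0.01, -0.11 and 0.00 for EA, RSV and EtOH (adjusted p = 0.966, 0.572 and 0.988), so the rise of Slc1a2 rests on its lead probe set. The second uncompressed probe set of Tbx3 gave 0.44 for EA (adjusted p = 0.256) and that of Glul 0.22 (adjusted p = 0.236). On this probe set of Glul the EA arrays (10.62 to 10.73) lay above the control arrays (10.36 to 10.52). The EA and control groups did not overlap for 57.6% of genes with uncompressed leads. A further 2, both compressed, were called with differences under 0.001: 1 of Axin2 (EA and RSV) and 1 of Slc1a2 (RSV), which also names Gm13872.

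**Figure D2:**
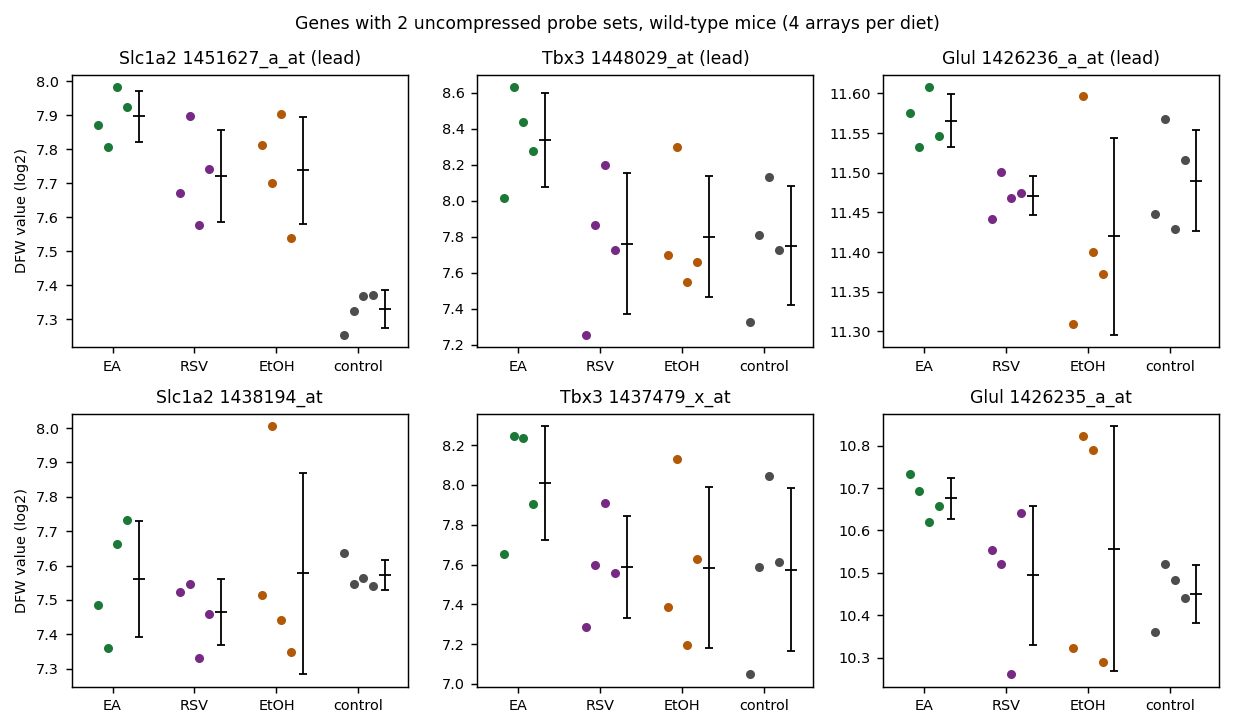
DFW values (log2, vertical axes) of the lead probe set (top) and the second uncompressed probe set (bottom) of Slc1a2, Tbx3 and Glul on each WT array (points), with mean and SD of 4 arrays per diet (bars). Axes do not start at 0. The control arrays of Slc1a2 lie below the others on the lead probe set and among them on the second, where 1 EtOH array reads 8.01.

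Set against EtOH, neither polyphenol moved any of the 8 measured member genes past the threshold of limma. For EA against EtOH limma called 0 of 8 (3.22% of all genes called), with 5 at an unadjusted p under 0.05 and 4 by the rank product, which called 5.6% of all probe sets. For RSV against EtOH it called 0 of 8 (0.555% of all genes), with 1 at an unadjusted p under 0.05 and 2 by the rank product (4.33% of all probe sets). For EA against RSV it called 0 of 8 (0.0165% of all genes), with 2 at an unadjusted p under 0.05 and 3 by the rank product (3.33%).

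Oat and Rhbg had values farther from control on the polyphenol diets than on EtOH. Oat was 0.28 higher on EA than on EtOH (95% confidence interval 0.02 to 0.54, adjusted p = 0.291) and 0.43 higher on RSV than on EtOH (0.17 to 0.69, adjusted p = 0.137). Rhbg was 0.40 higher on EA than on EtOH (0.10 to 0.69, adjusted p = 0.163) and 0.21 higher on RSV than on EtOH (-0.08 to 0.51, adjusted p = 0.499). When only uncompressed probe sets were tested, the RSV difference of Oat (adjusted p = 0.0355) and the EA difference of Rhbg (adjusted p = 0.041) passed. Of the 6633 probe sets in that test, 262 were called higher and 465 lower for RSV, and 648 and 910 for EA.

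For the other genes the intervals were these. Tbx3 was 0.54 higher on EA than on EtOH (0.04 to 1.04, adjusted p = 0.289) and 0.58 higher on EA than on RSV (0.07 to 1.08, adjusted p = 0.517). Glul was 0.15 higher on EA than on EtOH (0.04 to 0.26, adjusted p = 0.171), and without EtOH replicate 3, the high array, this became 0.20 (adjusted p = 0.0112). Slc1a2 differed from EtOH by 0.16 on EA (-0.01 to 0.33) and by -0.02 on RSV (-0.19 to 0.16). Lgr5 differed from EtOH by 0.04 on EA (-0.14 to 0.22) and by 0.01 on RSV (-0.17 to 0.19), which leaves it at the EtOH level within those bounds. Hal differed from EtOH by -0.20 on EA (-0.42 to 0.02, adjusted p = 0.379) and by -0.22 on RSV (-0.44 to 6.4e-05, adjusted p = 0.339).

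In CAR-deficient mice the mean differences of Oat, Rhbg, Slc1a2 and Lgr5 from control had the same signs as in WT mice, but none passed the adjusted test. For EA against control limma called 0 of 8 genes (0.242% of all genes called), with 6 at an unadjusted p under 0.05 and 4 by the rank product (2.96% of all probe sets). For RSV against control it called 0 of 8 (0.0715%), with 3 at an unadjusted p under 0.05 and 4 by the rank product (2.13%). For EtOH against control it called 0 of 8 (0.434%), with 4 at an unadjusted p under 0.05 and 3 by the rank product (1.87%). Without EtOH replicate 1 it was 0 of 8 by limma and 0 of 8 by the rank product, which then called 1.56% of all probe sets. Between the ethanol diets 0 of 8 were called, as of all genes (0%), with none at an unadjusted p under 0.05 and none by the rank product.

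Rhbg read 8.84, 8.80 and 9.16 on EA, 9.05, 8.08 and 8.23 on RSV, 9.05, 8.34 and 8.48 on EtOH, and 7.74, 7.50 and 7.75 on control. All 9 arrays of ethanol diets lay above the control arrays. Rhbg differed from control by 1.27 on EA (standard error 0.27, adjusted p = 0.119), 0.79 for RSV (adjusted p = 0.354) and 0.96 for EtOH (adjusted p = 0.206). Without EtOH replicate 1 the EtOH difference was 0.75 (adjusted p = 0.352).

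The lead probe set of Slc1a2 read 8.44, 8.86 and 8.99 on EA, 8.91, 8.43 and 8.34 on RSV, 8.71, 8.37 and 8.60 on EtOH, and 7.90, 7.83 and 8.17 on control. The control arrays were again below all others. Its lead differed from control by 0.80 on EA (standard error 0.19, adjusted p = 0.157), 0.60 for RSV (adjusted p = 0.327) and 0.60 for EtOH (adjusted p = 0.269, or 0.52 and 0.424 without EtOH replicate 1). When only uncompressed probe sets were tested, the EA differences of Rhbg (adjusted p = 0.0283) and Slc1a2 (adjusted p = 0.0444) passed. Of the 9300 probe sets in that test, 195 were called higher and 170 lower. The second uncompressed probe set of Slc1a2 read 8.36, 8.18 and 8.64 on EA, 8.10, 7.46 and 8.99 on RSV, 9.18, 8.31 and 7.84 on EtOH, and 8.08, 7.76 and 7.78 on control. Its RSV arrays fell on both sides of control, and its differences of 0.52, 0.31 and 0.57 on EA, RSV and EtOH did not pass (adjusted p = 0.729, 0.884 and 0.663). EtOH replicate 1 was its highest array, and without it the EtOH difference was 0.20 (adjusted p = 0.905).

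Oat read 12.35, 13.27 and 13.62 on EA, 13.58, 12.73 and 12.17 on RSV, 12.91, 12.59 and 13.05 on EtOH, and 12.28, 11.80 and 12.08 on control. The EA and RSV arrays spread widely, and 1 RSV array fell among the control arrays. The difference from control was 1.03 for EA (standard error 0.41, adjusted p = 0.369), 0.77 for RSV (adjusted p = 0.585) and 0.80 for EtOH (adjusted p = 0.475, or 0.77 and 0.594 without EtOH replicate 1).

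Lgr5 read 7.18, 7.33 and 7.48 on EA, 7.29, 7.42 and 7.30 on RSV, 7.18, 7.52 and 7.48 on EtOH, and 7.68, 7.60 and 7.61 on control. All arrays of ethanol diets lay below the control arrays, the nearest at 7.52. Lgr5 differed from control by -0.30 on EA (standard error 0.10, adjusted p = 0.287), -0.29 for RSV (adjusted p = 0.355) and -0.24 for EtOH (adjusted p = 0.391). Without EtOH replicate 1, the low array, the EtOH difference was -0.13 (adjusted p = 0.595).

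Tbx3 read 8.78, 8.86 and 9.12 on EA, 9.25, 9.09 and 8.90 on RSV, 7.65, 8.85 and 8.97 on EtOH, and 8.51, 8.32 and 8.34 on control. EtOH replicate 1 was the lowest array of all and decided the EtOH difference, which was 0.10 with it (adjusted p = 0.938) and 0.52 without it (adjusted p = 0.199). The differences for EA (0.53, adjusted p = 0.579) and RSV (0.69, adjusted p = 0.501) did not pass.

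Hal read 11.62, 11.59 and 11.67 on EA, 11.66, 11.33 and 11.30 on RSV, 11.62, 11.54 and 11.87 on EtOH, and 11.12, 11.29 and 11.47 on control. Its EA and EtOH arrays lay above the control arrays, with differences of 0.33 (adjusted p = 0.36) and 0.38 (adjusted p = 0.281, or 0.41 and 0.353 without EtOH replicate 1). Glul kept to a narrow band of 12.42 to 12.47 over all 12 arrays. Its lead was close to compressed there, with a standard deviation of 0.016. Its difference from control was 0.03 for EA (adjusted p = 0.323) and 0.02 for RSV (adjusted p = 0.716). For EtOH it was 0.01 (adjusted p = 0.886, or 0.867 without EtOH replicate 1). The second uncompressed probe set of Glul read 11.23, 11.37 and 11.73 on EA and 11.49, 11.26 and 11.74 on RSV. It read 11.70, 11.43 and 11.29 on EtOH and 11.59, 11.59 and 11.35 on control, with overlap between all diets.

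Counted by arrays, the EA and control groups did not overlap for 8 of 8 genes, where 23.9% of all genes and 37.1% of uncompressed genes did not. The 8 include the compressed Axin2 (difference 0.000235) and Glul, whose lead had a standard deviation of 0.016 and whose second probe set overlapped. For RSV against control it was 4 of 8 (18.4% of all genes, 28.4% of uncompressed genes), and for EtOH against control 5 of 8 (20.6% and 27.4%), or 7 of 8 without EtOH replicate 1 (36.7% and 44.7% for 2 arrays against 3). Lgr5 was the 1 gene lower in each of these counts. Kupffer cell markers had a mean level of 8.90 to 9.14 on arrays of ethanol diets and 9.22 to 9.44 on control arrays, with 0 of 12 called, and their part in these values was not tested.

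**Figure D3:**
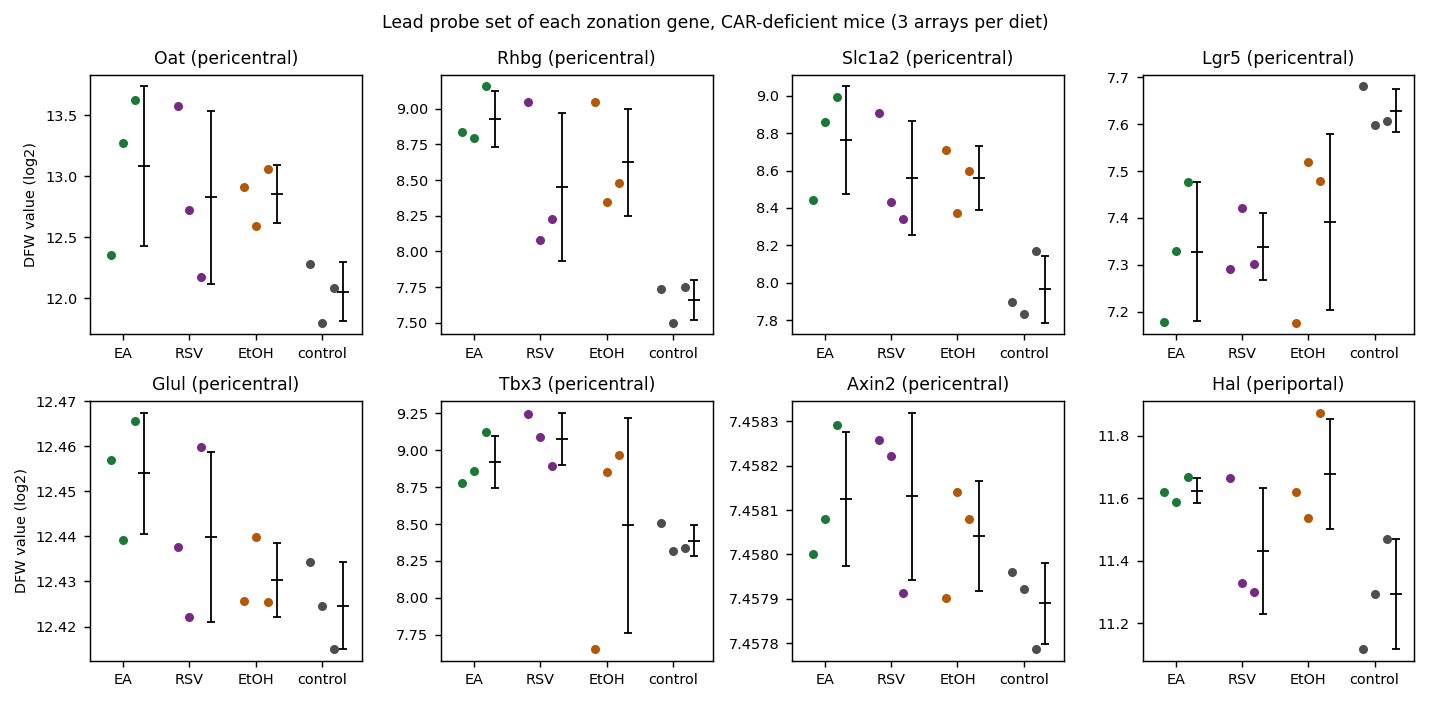
DFW values (log2, vertical axes) of the lead probe set of the 8 measured zonation genes on each CAR-deficient array (points), by diet, with the mean and SD of the 3 arrays (bars). Axes do not start at 0 and differ between genes. The control arrays lie below all others for Rhbg and Slc1a2 and above all others for Lgr5, and EtOH replicate 1 is the low point of Tbx3 at 7.65.

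Whether the genotypes differ in a diet's effect was tested as an interaction, the difference in CAR-deficient mice less that in WT mice, over all 28 arrays. The genotypes were summarised apart and may differ in scale, which this test cannot see. For EA against control 0 of 8 genes passed (2.11% of all genes called, 2 at an unadjusted p under 0.05), for RSV against control 0 of 8 (3.34%, 0 at an unadjusted p under 0.05) and for EtOH against control 0 of 8 (2.46%, 1 at an unadjusted p under 0.05), also without CAR-deficient EtOH replicate 1. Among the ethanol diets 0 of 8 passed for EA against EtOH (0.176%, 1 at an unadjusted p under 0.05), for RSV against EtOH (0%, 0 at an unadjusted p under 0.05) and for EA against RSV (0%, 0 at an unadjusted p under 0.05).

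The intervals of the interaction were wide. For Oat it was -0.05 for EA (95% confidence interval -0.83 to 0.73), -0.45 for RSV (-1.23 to 0.33) and 0.00 for EtOH (-0.78 to 0.78), or -0.03 without CAR-deficient EtOH replicate 1. For Rhbg it was 0.11 for EA (-0.48 to 0.69), -0.19 for RSV (-0.78 to 0.40) and 0.20 for EtOH (-0.39 to 0.79), or -0.01 without that array. Hal, whose EA difference from control was positive in CAR-deficient mice and negative in WT mice, had the interaction nearest the threshold: 0.50 (0.16 to 0.84, adjusted p = 0.141), with 0.32 for RSV (adjusted p = 0.303) and 0.35 for EtOH (adjusted p = 0.302, or 0.37 and 0.282 without that array).

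**Figure D4:**
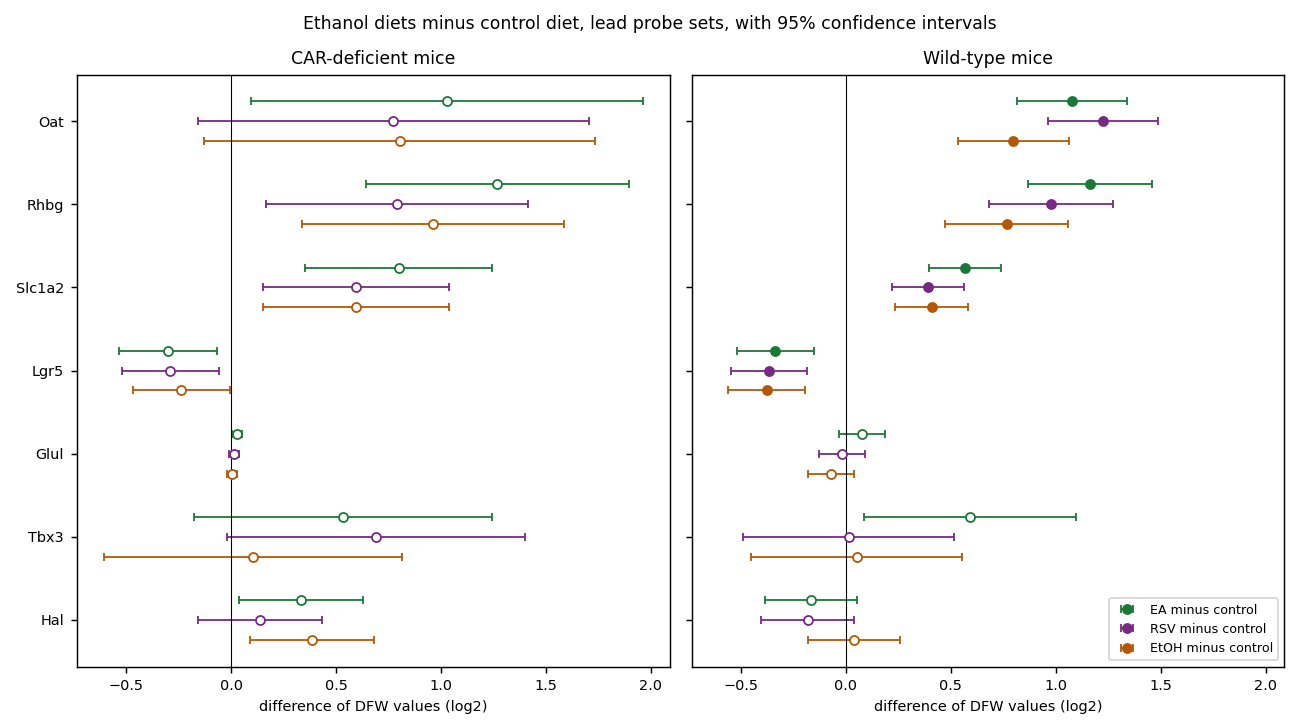
Differences of DFW values (log2, horizontal axis) between each ethanol diet and the control diet for the uncompressed lead probe sets, in CAR-deficient mice (left) and WT mice (right), with 95% confidence intervals from limma. Filled points passed an adjusted p of 0.05. In WT mice Oat, Rhbg, Slc1a2 and Lgr5 are filled on all 3 diets, and in CAR-deficient mice no point is filled although those genes lie on the same sides of 0.

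Correlations between members are given for Oat, Rhbg and Slc1a2 and for Axin2 and Tbx3. Over the 16 WT arrays Pearson's r was 0.899 for Oat and Rhbg, 0.838 for Oat and Slc1a2, and 0.877 for Rhbg and Slc1a2. Within diets r was 0.358, 0.457 and 0.33. Over the 12 CAR-deficient arrays r was 0.828, 0.927 and 0.928, and within diets 0.663, 0.889 and 0.779, or 0.753, 0.909 and 0.782 without EtOH replicate 1. For the compressed Axin2 and Tbx3 r was 0.761 in CAR-deficient mice and 0.794 in WT mice, and within diets 0.667 and 0.715. Arrays share their normalization, so these values describe the data and carry no test.

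Over the 16 WT arrays and 3857 genes with uncompressed leads, the genes most like Oat were Fbxo36 (r = 0.958), Slc38a4 (0.951), an amino acid transporter, and Fmo1 (0.951), a flavin monooxygenase. Most like Rhbg were Cyp2c54 (0.958), Idh2 (0.954), the mitochondrial isocitrate dehydrogenase, and the non-coding RNA Meg3 (0.944). For Slc1a2 they were Akr1c19 (0.933), Cyp4a31 (0.919) and Vps26c (0.916), for Lgr5 Grb14 (0.902), Nxpe2 (0.876) and Actg1 (0.866), and for the compressed Axin2 probe set Tmtc2 (0.911), Ier3 (0.891) and Maff (0.885). Shared differences between diets enter these r, and r within diets was not computed for these genes.

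Other genes with known zonation were read from companion lists. Of 28 measured genes in a list of further pericentral genes, 11 were called higher and 3 lower on EA, 10 higher and 2 lower on RSV, and 8 higher and 2 lower on EtOH, each against control. Those that rose most were drug-metabolizing enzymes: Gstm3, a glutathione S-transferase, differed from control by 1.87 on EA (adjusted p = 0.00054), 1.42 on RSV (adjusted p = 0.0024) and 1.46 on EtOH (adjusted p = 0.0065). Cyp2c37 differed by 1.10, 1.16 and 0.83 on EA, RSV and EtOH, Cyp2c54 by 1.09, 1.12 and 0.88, and Gstm1 by 0.99, 0.87 and 0.97. The vasopressin receptor gene Avpr1a was lower on EA and on RSV (-0.76 each), Lect2 was lower on EA (-0.32) and on EtOH (-0.31), and Gulo, the last enzyme of vitamin C synthesis, was lower on EtOH (-0.34). The median difference of the list was 0.08 on EA, 0.05 on RSV and 1.18e-05 on EtOH, beside 4.47e-05, 4.96e-05 and 3.42e-05 over all genes. Of all genes 8.29% were called higher and 9.67% lower on EA, 11.2% and 12.6% on RSV, and 2.99% and 4.05% on EtOH. With uncompressed leads alone it was 11 higher and 2 lower of 24 on EA, 10 and 1 on RSV, and 8 and 2 on EtOH, beside 15.2% and 27.8%, 14.3% and 31.0%, and 6.69% and 11.7% of all genes with such leads. In CAR-deficient mice 1 gene of this list passed, Cyp2c37 on EtOH (1.34, adjusted p = 0.025), and it did not without EtOH replicate 1 (1.39, adjusted p = 0.055).

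The list of further periportal genes did not move in 1 direction. Of 33 measured genes, 7 were called higher and 5 lower on EA, 8 higher and 6 lower on RSV, and 4 higher and 3 lower on EtOH, with medians of 0.000101, 0.000115 and 0.05. Among uncompressed leads 12 of 28 were called on EA and 14 of 28 on RSV, near the 43% and 45.3% of all such genes, and 7 of 28 on EtOH, beside 18.4%. The urea cycle enzymes Asl (0.72 on EA, 0.95 on RSV and 0.61 on EtOH) and Arg1 (0.43, 0.69 and 0.47) were higher on each. Gpt, which moves amino groups off alanine, was higher on EA (0.62) and RSV (0.87), as was the cytochrome P450 gene Cyp2f2 (0.28 on each of them). Among genes that fell were the lipoprotein genes Apoa4 (-0.66 on EA, -0.86 on RSV and -0.78 on EtOH) and Apoc2 (-0.36, -0.40 and -0.41). G6pc, the last step of glucose release, was -1.85 on EA and -1.46 on RSV, Cdh1, a cell adhesion gene, was -0.66 and -0.65, and Gldc, of the glycine cleavage system, was -0.63 on EA.

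Of 30 Wnt and beta-catenin pathway genes, 20 had compressed leads. On EA 4 were called higher and 4 lower, on RSV 4 higher and 4 lower, and on EtOH 0, beside 18%, 23.8% and 7.04% of all genes, with medians of 8.05e-05, 1.49e-05 and -4.77e-05. Of the 10 uncompressed leads 1 was higher and 2 were lower on EA, and 2 were higher and 2 lower on RSV, beside 43% and 45.3% called of all such genes. The Wnt receptor gene Fzd4 was higher on EA (0.78, adjusted p = 5e-05) and on RSV (0.53, adjusted p = 0.00041), and also higher on EA than on EtOH (0.55, adjusted p = 0.0046). Tcf7l2, a TCF/LEF factor, was lower on EA (-0.34) and RSV (-0.45), Ctnnb1, which encodes beta-catenin, was lower on EA (-0.10), and the cell cycle gene Ccnd1 was lower on RSV (-1.48, adjusted p = 0.0047).

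Of 22 measured genes that handle glutamine, ammonia and related amino acids, 5 were called higher and 3 lower on EA, 10 higher and 2 lower on RSV, and 3 higher and 0 lower on EtOH, with medians of 0.000279, 0.14 and 0.000135. Among 18 uncompressed leads 8 were called on EA, 10 on RSV and 3 on EtOH, beside 43%, 45.3% and 18.4% of all such genes, so on EA and EtOH the share was near the background. Prodh, which opens proline toward glutamate, was higher on each diet (1.08, 1.17 and 0.59 on EA, RSV and EtOH), and Got1, the cytosolic aspartate aminotransferase, on RSV (1.72). Slc7a2, a transporter of basic amino acids, was higher on EA (0.63) and RSV (0.78), and both Slc38a4 (0.27, 0.31 and 0.17 on EA, RSV and EtOH) and Nags, which makes the activator of the urea cycle (0.23, 0.25 and 0.24), were higher on each diet. Glud1, glutamate dehydrogenase, was lower on EA (-0.44) and RSV (-0.37) and lower on EA than on EtOH (-0.31, adjusted p = 0.04), and Slc38a2, a glutamine transporter, was lower on EA than on control (-0.47) and on EtOH (-0.52).

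In the list for histidine, serine and threonine metabolism, the setting of Hal, 2 of 14 measured genes were called higher and 1 lower on EA, 3 higher on RSV and 2 higher on EtOH, with medians of 0.00779, 0.08 and 0.06. Of all genes 18%, 23.8% and 7.04% were called on EA, RSV and EtOH. Among 10 uncompressed leads 3, 3 and 2 were called, beside 43%, 45.3% and 18.4% of all such genes. The share was thus below the background on EA and RSV and near it on EtOH. Srr, serine racemase, was higher on each diet (0.24, 0.26 and 0.30 on EA, RSV and EtOH), as was Agxt (0.17, 0.27 and 0.19), and Shmt2 was higher on RSV (0.40). Gldc was lower on EA than on EtOH (-0.71, adjusted p = 0.019). In CAR-deficient mice no gene of the last 4 lists passed in a comparison with control.

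**Figure D5:**
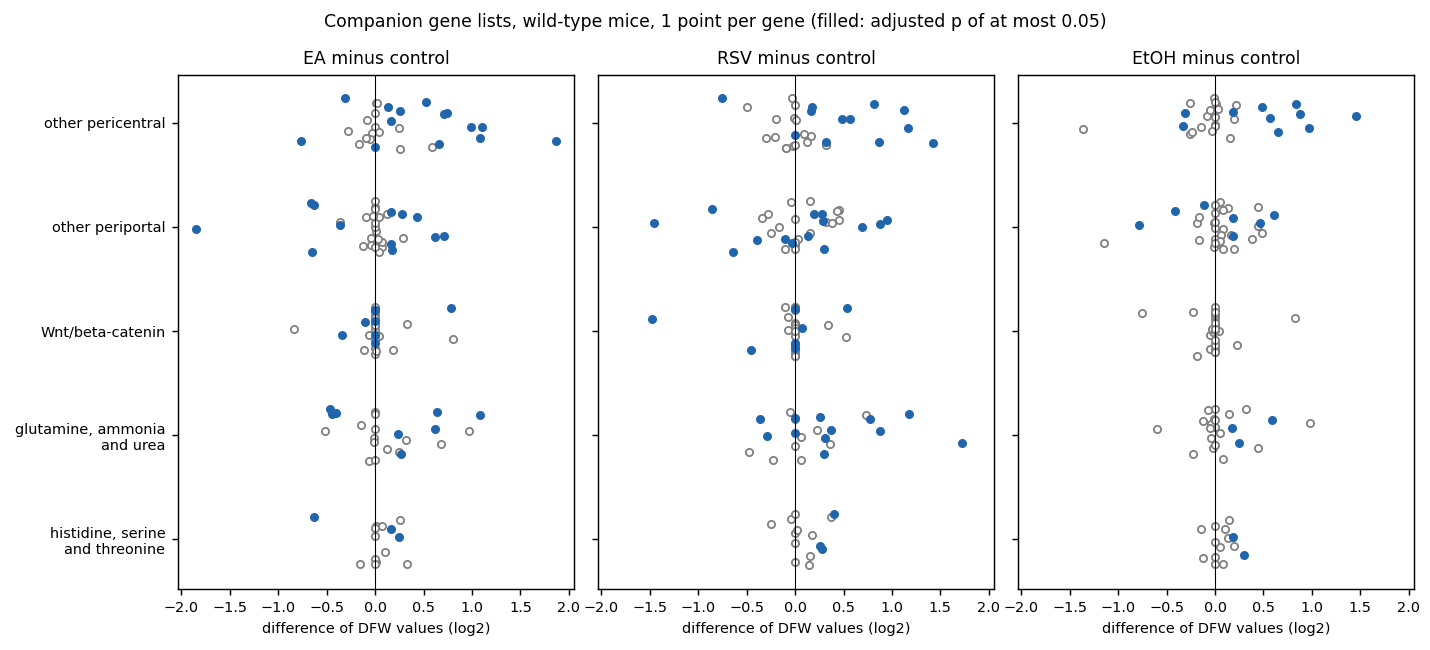
Differences of DFW values (log2, horizontal axis) between each ethanol diet and the control diet in WT mice, with 1 point for each gene of 5 companion lists and filled points at an adjusted p of at most 0.05. Points are shifted vertically at random for sight. Most filled pericentral points lie right of 0, up to 1.87 for Gstm3 on EA, and periportal ones lie on both sides, down to -1.85 for G6pc on EA.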

How the data were processed

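The authors deposited log2 values of Affymetrix Mouse Genome arrays, summarised by Distribution Free Weighting (DFW) in R apart for the 16 WT and the 12 CAR-deficient arrays. DFW shrinks the spread of probe sets it weights as uninformative, so many values are compressed and differences are not fold changes. The number of arrays limits the precision. Of 45101 rows, 64 control probe sets were set aside, and 26 probe sets blank in CAR-deficient mice were left out there. Genes were named from the platform annotation, in which 34945 probe sets named 1 gene, 932 several and 9160 none.

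Diets were compared with limma 3.58.1 in R 4.3.3 (lmFit and eBayes, two-sided, 1 fit per genotype, and 1 over all 28 arrays for the interaction) with Benjamini-Hochberg adjustment over 45037 probe sets in WT and 45011 in CAR-deficient mice. The script was tested on simulated data. Alternatives were quantile normalization, uncompressed probe sets alone, only the groups compared, the replicate block, the rank product that the study used for selection (50 permutations), and each array left out, with the rank product without CAR-deficient EtOH replicate 1 added after seeing the data. The members and lists were chosen with earlier results of these data known. Members were all named. From the other lists the text names at most the 4 genes higher and 4 lower of largest difference per comparison, with their values in the other comparisons, and for each member called in WT the 3 genes of highest r. Kupffer cell genes named were chosen after their values were seen.

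Replicate numbers come from the sample titles, and nothing in the labels says what a number shares. Same-numbered arrays deviated together in every pair for EA against control in WT mice (r 0.157 to 0.568, 4 pairs). They also did so for EtOH against control in CAR-deficient mice (0.288 to 0.41, 3 pairs). In each of the other 10 comparisons the lowest r of a pair was 0.0207 or less. Figures were drawn with matplotlib 3.10.9. Promoters came from RefSeq (GRCm38.p6).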

Additional observations from a re-analysis of the deposited data

Results flagged for a closer look

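In 1 of 32 groups of 4 WT arrays, 1 for each gene and diet, a single array stood far from the others. Hal read 10.69 on RSV replicate 3, where the other RSV arrays read 10.45 to 10.47, so that the gap made up 0.889 of the group's range. A group is picked out this way by chance in about 5 percent of cases. Groups of 3 CAR-deficient arrays are too small for this comparison.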

How the results depend on the processing

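The counts of called zonation genes were recomputed 451 times over 18 comparisons, and 436 values stayed within 1.5 times of the reported count. In most of these comparisons the reported count was 0, and a count that stayed at 0 is among the 436. With only the 2 groups compared in the fit, EtOH against control in WT mice gave 2 genes and not 4. With the replicate block it gave 2 (Oat and Slc1a2), while Rhbg (adjusted p = 0.0684) and Lgr5 (0.0824) did not pass. These arrays were not shown to be paired, and the block gave 6 genes for EA against control, 4 for RSV against control and 0 elsewhere. It changed no call in the other paired comparison, EtOH against control in CAR-deficient mice. The rank product called 4 genes for EA against EtOH, 2 for RSV against EtOH and 3 for EA against RSV in WT mice. In CAR-deficient mice it called 4 for EA, 4 for RSV and 3 for EtOH against control, the last falling to 0 without EtOH replicate 1, an alternative chosen after seeing the data. With only uncompressed probe sets, fewer tests were adjusted for. In WT mice 1 gene passed for EA against EtOH (Rhbg), where 648 probe sets of 6633 were called higher and 910 lower. For RSV against EtOH 1 passed (Oat), where 262 were higher and 465 lower. In CAR-deficient mice 2 passed for EA against control (Rhbg and Slc1a2), where 195 of 9300 were higher and 170 lower. Leaving out 1 array at a time gave 0 to 1 genes for EA against EtOH in WT mice (Glul, without EtOH replicate 3). After quantile normalization the interaction passed for 2 genes on EA (Axin2 and Hal), 1 on RSV and 1 on EtOH (Axin2 in both), when it called 29.0%, 38.3% and 23.1% of all probe sets. The cause was not tested for the other changes.

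No difference past the threshold changed its sign. Of 2004 member differences under the alternatives, 1896 kept their direction and side of the threshold, 32 passed only there, 19 passed only in the reported fit, and 57 changed sign with neither value past the threshold. Oat, Rhbg and Slc1a2 passed against control on each diet in WT mice whichever of the 16 arrays was left out, with adjusted p up to 0.0374. The Axin2 call for EA was lost without EA replicate 2 or 3 or control replicate 2 or 4 (up to 0.0616) and by the rank product (0.12). Tbx3 passed for EA after quantile normalization (0.0376), with uncompressed probe sets (0.0375) and by the rank product (0.00106). Over all probe sets of WT mice, quantile normalization gave 14693 higher and 9495 lower for EA against control (2729 and 3669 as reported), 17263 and 7736 for RSV (4084 and 4801), and 11768 and 3466 for EtOH (991 and 1510). Compressed values limit what can be said of Axin2 and of the Wnt genes.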
